A study of Mus musculus with 2 samples.

Results

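Sox, Fox, Klf, Sp, Gata and T-box genes encode 6 families of DNA-binding transcription factors, and their transcripts were followed here in mouse cells labelled as lymphoma. Members were taken by name. A probe set counted when the array's annotation gave it exactly 1 symbol that starts Sox, Klf, Gata, Tbx or Sp with digits only after it, or Fox with 1 letter and digits after it. This gave 231 probe sets of 99 genes, of 18193 genes with a probe set on the array. Each gene is represented by the probe set with the highest mean of the 2 deposited values. The members were 19 Sox, 37 Fox, 16 Klf, 7 Sp, 6 Gata and 12 T-box genes, and Sp100 and Sp110, which the name rule takes although they are nuclear body proteins and not relatives of Sp1.

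The study set 1 array of cells labelled lymphoma in medium with serum beside 1 array of cells labelled lymphoma that shared their culture with endothelial cells, which line vessels. The design asks how transcripts differ between both cultures. The labels give no mouse strain, genotype, lymphoma line, source of the endothelial cells, culture time or co-culture medium, and do not say if lymphoma and endothelial cells were parted before lysis. There are no replicates, so no test between the cultures was possible and no p-value is given.

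These families read DNA through different folds. Sox proteins bend DNA through an HMG box, Fox proteins bind through a forkhead domain, Klf and Sp proteins share a set of C-terminal zinc fingers that bind GC-rich and CACCC sites, Gata factors bind GATA sites through a pair of zinc fingers, and T-box factors bind through the large T domain. Many members set cell identity: Gata1 in red cell precursors, Gata3 and Tbx21 in T cells, Sox7, Sox17 and Sox18 in endothelium, Sox2 in pluripotent and neural progenitor cells. Others, such as Sp1, Sp3, Foxk2 and Klf13, are expressed in many tissues, and the FOXO proteins are held out of the nucleus by PI3K and AKT signalling.

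A gene is called measured when its probe set lay above an intensity of 44.3, the pooled median of all values, on at least 1 array. Values under this floor were set to it, so folds against it are lower bounds, given as "at least". Genes are called higher or lower at a 2-fold difference, and log2 differences are co-culture minus serum. The spread between measured probe sets of 1 gene is the one error that the data allow. Its pooled SD was 0.66 on the log2 scale for genes with a mean intensity below 200 and 0.59 for brighter genes. It leaves out the spread between cultures. The 3′ to 5′ intensity ratio, which rises as RNA breaks or as labelling falls short, was higher on the serum array for beta-actin (3.56 against 2.05), Gapdh (2.54 against 1.88) and the transferrin receptor (13.2 against 5.03). The part of this gap in the differences below was not tested. Defining markers of the labelled cells were mostly under the floor. Of 10 pan-leukocyte genes 3 were measured, of 10 B cell genes 2 and of 8 T cell genes 1, with highest intensities of 139, 161 and 47.2. Of 14 endothelial genes 3 were measured, with Pecam1 at 21.3 and 18.4 and Cdh5 at 19.6 and 44.1 on the serum and co-culture arrays. The endothelial list summed to 798 in serum and 903 in co-culture, most of it Egfl7 (473 and 532), while Flt1, a VEGF receptor, read 93.3 and 26.4, at least 2.11-fold lower. The pan-leukocyte list summed to 406 and 378, and Ptprc, the CD45 antigen, read 21.5 and 3.14. The arrays are therefore named by their labels. In bulk RNA, fewer cells of a type and less RNA per cell cannot be told apart.

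Of the 99 members 55 (55.6%) were measured, against 63.4% of all genes, and the families differed in how many of their genes were. Among Klf genes 14 of 16 were measured, among Sp genes without Sp100 and Sp110 6 of 7, and among Fox genes 23 of 37. Among Sox genes 8 of 19 were measured, among Gata genes 2 of 6 and among T-box genes 2 of 12. The 44 members that were not measured stayed at or below an intensity of 40.5 on both arrays. They include the lineage factors Gata1 (15.3 in serum and 1.45 in co-culture), Gata3 (4.02 and 2.14) and Tbx21 (6.29 and 3.56), and the endothelial SoxF genes Sox7 (20.2 and 27.7), Sox17 (4.86 and 15.8) and Sox18 (11.1 and 1.77). Sox2 (21.1 and 18.0), the neural crest factors Sox10 (27.1 and 23.7) and Foxd3 (6.57 and 3.46), and the endoderm factors Foxa2 (4.15 and 3.52) and Gata6 (25.5 and 7.75) were also under the floor. Sp100 (11.7 and 34.0) and Sp110 (40.5 and 7.16), interferon-inducible nuclear body genes, were not measured either. A value under the floor does not show that a gene is silent.

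**Figure D1:**
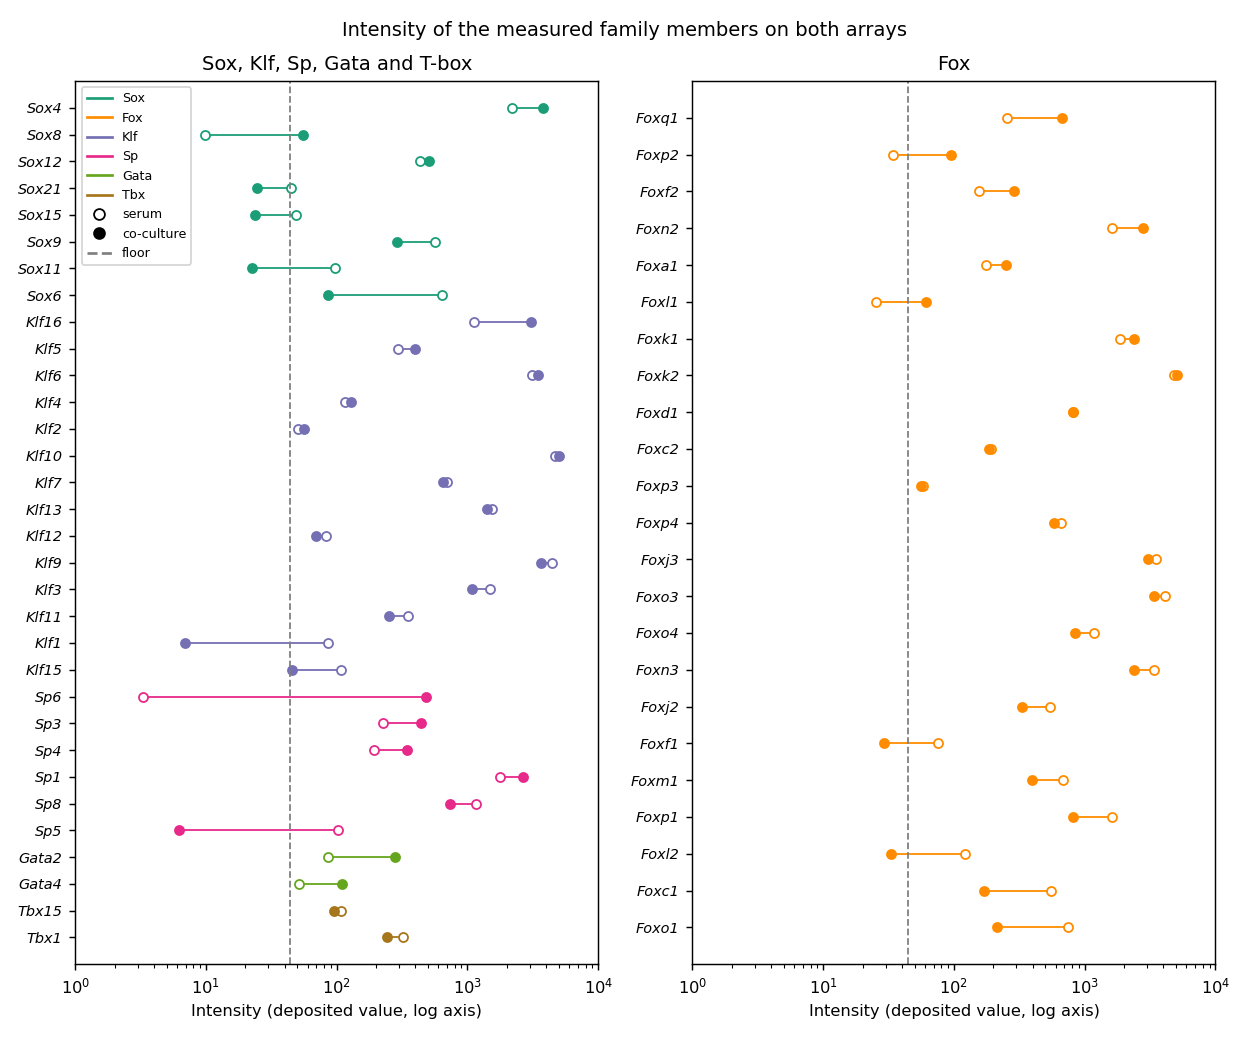
Deposited intensity (log axis) of the 55 measured members, 1 row per gene, with the serum array as open circles, the co-culture array as filled circles and the floor of 44.3 as a dashed line; colours mark the families. Most pairs of circles lie close together, while Sp6 runs from 3.29 to 483 and Sox6 from 633 down to 85.5.

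In co-culture 6 of the 55 measured members reached 2-fold on the higher side and 7 on the lower side, with 42 between. Among all measured genes 4.60% were higher and 10.1% lower. The higher members were Sp6, Gata2, Klf16, Foxq1, Foxp2 and Gata4, and the lower ones Sox6, Foxo1, Foxc1, Foxl2, Klf15, Sp5 and Sox11. Of the 55, 44 lay above the floor on both arrays, 7 on the serum array alone and 4 on the co-culture array alone. A member above the floor on 1 array alone had to differ, so the counts over the 55 are a description. Among those 44, 4 were higher and 4 lower, where 3.91% and 10.0% of all genes above the floor on both arrays were. The median log2 difference of measured members was -0.09, and that of all measured genes was -0.06. When the arrays were scaled to the bacterial hybridisation spikes, 5 members were higher and 10 lower, and the median of all measured genes moved to -0.25, with 357 genes higher and 1620 lower in place of 531 and 1162.

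The members nearest to the 2-fold limit on its inner side were Foxp1 (-0.99), Sox9 (-0.98), Sp3 (0.96) and Klf1 (-0.95, a bound). On its outer side were Gata4 (1.09), Foxp2 (1.10, a bound) and Sox11 (-1.13, a bound). These 7 genes lie closer to the limit than the SD between probe sets, so their side of it is not resolved. The same holds on the outer side for Klf16 (1.43), Foxq1 (1.41), Klf15 (-1.25), and the bounds of Foxl2 (-1.46) and Sp5 (-1.21). On the inner side it holds for further members, such as Foxf2 (0.89) and Sp4 (0.85). By the probe set used, the members past the limit by more than that SD were Sp6, Gata2, Sox6, Foxo1 and Foxc1. With the mean over measured probe sets, Foxo1 (-1.11) and Gata2 (1.47) lay closer to the limit than that SD. Sp6 (1.95), Sox6 (-2.20) and Foxc1 (-2.16) stayed past it by more.

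**Figure D2:**
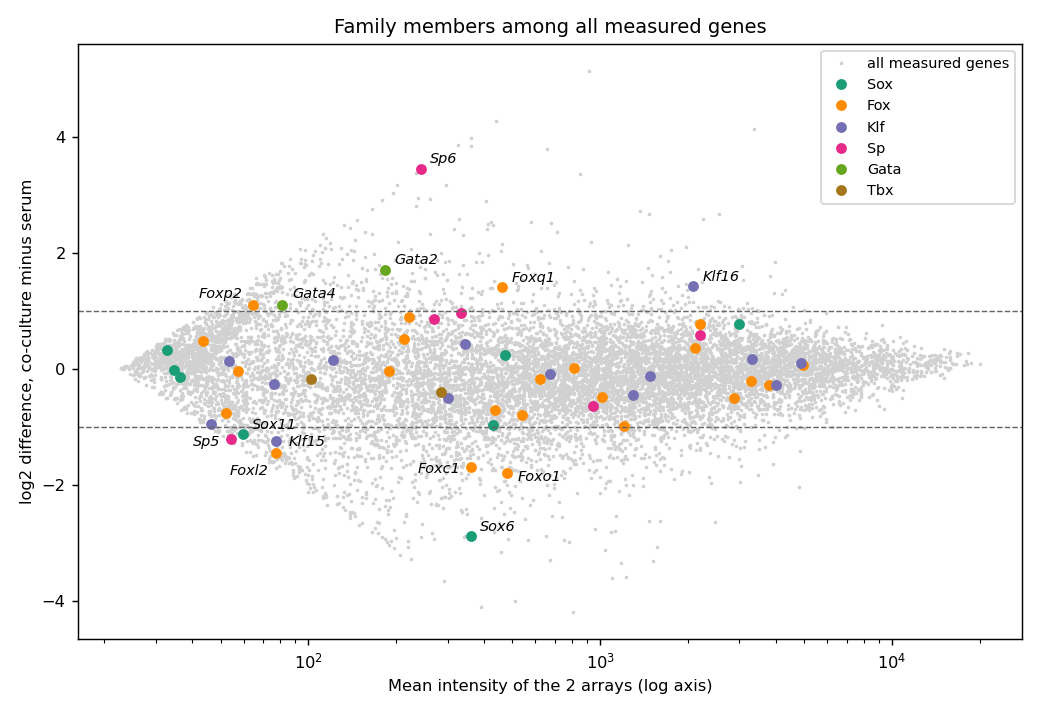
Log2 difference (co-culture minus serum) against the mean intensity of the 2 arrays (log axis) for all 11542 measured genes in grey and the 55 measured members in colour; dashed lines mark 2-fold. The 13 named members lie past 2-fold, with Sp6 at 3.45 and Sox6 at -2.89 the farthest from 0 among the members.

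Sox6 stood lowest among the measured members. This SoxD factor works in cartilage and in red cell precursors, where it silences embryonic globin genes. Its intensity was 633 in serum and 85.5 in co-culture, 7.40-fold lower. The other 3 measured probe sets of Sox6 read 331 and 48.3, 230 and 45.4, and 76.3 and 20.1 in the same order of arrays, so all 4 were lower in co-culture. Over the 4 the mean log2 difference was -2.20. Its SoxD relatives Sox5 (24.7 and 35.1) and Sox13 (24.3 and 10.2) were under the floor on both arrays.

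The SoxC genes, which act in neural and lymphoid progenitors, gave mixed readings. Sox11 had 96.7 in serum and 22.6 in co-culture, at least 2.18-fold lower. That value comes from a probe set marked for shared sequence, and the other 5 probe sets of Sox11 were under the floor on both arrays. Sox4, a SoxC factor needed for B cell development, had 2204 and 3761, a log2 difference of 0.77. Its probe sets did not agree: 3 of the 6 measured ones were higher in co-culture (up to 1.08) and 3 were lower (down to -1.62), with a mean of -0.13. Sox12 had 434 and 510 (0.23), and its other measured probe set gave -0.62. No direction can be given for Sox4 or Sox12 from these readings.

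Of the SoxE genes, Sox9, the master factor of cartilage and of several stem cell niches, had 567 in serum and 288 in co-culture, a log2 difference of -0.98 just inside the limit. Its other 2 probe sets were under the floor. Sox8 was above the floor on the co-culture array alone (9.78 and 55.6), a log2 difference of 0.33 once floored. Sox15 (48.9 and 23.8) and Sox21 (45.0 and 24.4) lay within a few units of the floor on the serum array and under it on the other.

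Among the Fox genes the lower members included a factor of metabolism and a factor of vessel development. Foxo1, which promotes cell cycle arrest and gluconeogenic genes when insulin and PI3K signals are low, had 743 in serum and 213 in co-culture, 3.49-fold lower. All 4 of its probe sets were lower, with log2 differences of -1.81, -1.72, -0.65 and -0.28 and a mean of -1.11. The probe set used is marked for shared sequence, and without such probe sets the value was -0.65, within 2-fold. Its relatives Foxo3 (4140 and 3414, log2 difference -0.28) and Foxo4 (1186 and 847, -0.48) lay within 2-fold. The 3 FOXO genes kept a negative difference under each of the 9 alternative settings. Several of these could not change the sign, since floors and a pseudocount keep it and spike scaling lowers every co-culture value.

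Foxc1, a mesodermal factor of blood vessels and the eye, had 554 in serum and 170 in co-culture, 3.26-fold lower. Its other probe set read 305 and 49.7, a log2 difference of -2.62, so both were past 2-fold. Its close relative Foxc2, of lymphatic and vein development, had 191 and 185 (-0.04). Foxl2, which maintains the ovarian granulosa cell state, had 122 and 33.3, at least 2.74-fold lower. Its other probe set was under the floor on both arrays.

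Foxp1, a factor of early B cell development and lung epithelium, had 1606 and 811 (log2 difference -0.99). All 6 of its measured probe sets were lower, from -0.02 to -1.84, and 3 of them were past 2-fold. Foxp4 had 662 and 587 (-0.17), and -1.16 by its other measured probe set. Foxp3, the factor of regulatory T cells, had 58.1 and 56.3, barely above the floor. Foxp2, a factor of neural and lung development, had 34.1 in serum and 95.0 in co-culture, at least 2.14-fold higher. Its other measured probe set read 19.1 and 52.8, with a log2 difference of 0.25 as a bound. The mean of both bounds was 0.68, which cannot show if the gene lay within 2-fold.

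Foxq1, a forkhead factor of hair and epithelial cells, had 253 in serum and 672 in co-culture, 2.65-fold higher. Its other probe set read 57.8 and 66.5, a log2 difference of 0.20, and that is the value once probe sets with shared sequence are left out. The 2 probe sets of Foxq1 thus gave different answers. Foxf2 (155 and 288, 0.89) and Foxn2 (1616 and 2773, 0.78) lay within 2-fold, and the other measured probe set of Foxn2 gave 0.98. Foxf1, of gut and lung mesenchyme, had 75.1 and 29.4, at least 1.70-fold lower. Foxm1, which drives transcription for mitosis, had 681 and 394 (-0.79), with -0.58 and -0.36 by its other 2 measured probe sets.

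The remaining Fox genes described here lay within 2-fold by the probe set used. Foxk2 had 4830 and 5039 (log2 difference 0.06, with other probe sets from -0.04 to 1.08), Foxk1 1852 and 2374 (0.36), and Foxj3 3526 and 3032 (-0.22). Foxn3, a repressor linked to the DNA damage checkpoint, had 3383 and 2373 (-0.51), and its 4 measured probe sets were all lower. Foxj2 had 542 and 329 (-0.72) and -1.20 by its other probe set. Foxd1, of kidney stroma and retina, had 807 and 814 (0.01), and Foxa1, a factor that opens closed chromatin in endoderm and breast, had 176 and 249 (0.50). Foxl1 (25.5 and 61.4) crossed the floor on the co-culture array. Over the 23 measured Fox genes the median log2 difference was -0.17.

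Most Klf genes were measured and lay within 2-fold. Klf16, a GC-box binding repressor, was the exception on the higher side, with 1131 in serum and 3043 in co-culture, 2.69-fold higher. It has 1 probe set on the array, so nothing on the array repeats the reading. It was past 2-fold under all 9 alternative settings, the one member for which this held. Klf15, a factor of amino acid and glucose metabolism in muscle and liver, had 109 and 45.8, 2.37-fold lower by its 1 probe set, with the co-culture value just above the floor. Klf1, the activator of adult globin genes, had 85.8 and 6.90, at least 1.94-fold lower.

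Klf10, an early response gene of TGF-beta signalling, had 4703 and 5036 (log2 difference 0.10). Klf6, a stress-induced factor of many tissues, had 3110 and 3491 (0.17), with other probe sets from -0.22 to 0.90. Klf9, which responds to glucocorticoid and thyroid hormone, had 4405 and 3632 (-0.28), with other probe sets from -1.05 to 0.51. For Klf6 and Klf9 the probe sets lay on both sides of 0, and Klf10 has 1 probe set. Klf2 and Klf4, the flow-induced factors of endothelium, were alike on both arrays, Klf2 near the floor at 50.7 and 55.9 and Klf4 at 115 and 128. The second Klf4 probe set read 98.5 and 109. Klf5, of epithelial stem cells, had 294 and 396 (0.43) and 0.44 by its other measured probe set. Klf3, Klf7, Klf11, Klf12 and Klf13 had log2 differences between -0.50 and -0.09 by the probe set used. The other measured probe sets of Klf7 went the other way, from 0.23 to 1.41, and those of Klf3 ran from -0.81 to 0.47. Over the 14 measured Klf genes the median was -0.10.

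The measured Sp genes did not share a direction. Sp1, Sp3 and Sp4, the broadly expressed factors of GC boxes, were each brighter on the co-culture array without reaching 2-fold. Sp1 had 1766 and 2646 (log2 difference 0.58), and its other 2 probe sets, at 0.97 and 0.74, were higher too. Sp3 had 226 and 440 (0.96), and Sp4 had 192 and 347 (0.85), each by its 1 measured probe set. The 3 differences stayed above 0 under every alternative setting in which the genes were measured. Most settings could not change this, since floors and a pseudocount keep the sign and spike scaling shifts values by 0.19. Under the spike scaling the differences ran from 0.39 to 0.77. Sp3 was past 2-fold with the median difference subtracted (1.02) and with quantile normalization (1.01).

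The Sp genes of embryonic patterning differed in direction. Sp6, or epiprofin, of tooth, skin and limb epithelium, had 3.29 in serum and 483 in co-culture, at least 10.9-fold higher. Its second probe set crossed the floor the same way (1.78 and 60.8, log2 difference 0.46), and its other 2 were under the floor on both arrays. Sp5, a target of Wnt signalling in the embryo, had 102 and 6.21, at least 2.31-fold lower by its 1 probe set. Sp8, of the limb bud ridge and forebrain, had 1154 and 741 (-0.64). Sp7, or osterix, of bone, was under the floor (7.07 and 39.1).

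Both measured Gata genes were higher in co-culture. Gata2, of blood stem cells, mast cells and endothelium, had 86.0 in serum and 281 in co-culture, 3.27-fold higher. Its other probe set read 83.4 and 195, a log2 difference of 1.23, so both passed 2-fold. The names of both end in _a_at, a suffix counted here with _s_at and _x_at as shared sequence. Gata2 thus has no value once such probe sets are left out. Whether the shared stretches lie within the gene or in other genes was not examined. Gata4, of heart and gut endoderm, had 51.7 and 110, 2.13-fold higher, and its other probe set was under the floor on both arrays. It was within 2-fold with a pseudocount (0.90), with quantile normalization (0.82) and with spike scaling (0.90). Gata5 had 29.9 and 27.7 and was not measured.

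Of the 12 T-box genes 10 were under the floor on both arrays. Tbx1, of the pharyngeal arches and heart outflow tract, had 324 and 244 (log2 difference -0.41), and Tbx15, of skeletal and fat progenitors, had 109 and 96.0 (-0.18). The highest reading among the other 10 was Tbx3, a factor of limb, breast and pluripotent cells, at 38.3 and 31.6, with its 5 probe sets all under the floor. Tbx2 had 3.48 and 16.5. At this floor no T-box gene was past 2-fold.

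Probe sets of 1 gene gave a check within each array. At least 2 measured probe sets were present for 28 members, and for 21 of them all lay on 1 side of 0. Among all genes with at least 2 measured, 53.7% had all on 1 side. The members with probe sets on both sides were Foxk2, Klf3, Klf6, Klf7, Klf9, Sox4 and Sox12. Of the 13 members past 2-fold, 7 had more than 1 measured probe set, and in all 7 the others had the same sign: Sox6, Foxo1, Foxc1, Gata2, Sp6, Foxp2 and Foxq1. These 7 were picked by the size of their difference, and the 53.7% covers genes of any difference. The share among all genes past 2-fold was not computed, so the count of 7 is a description. For Sox6, Foxo1, Foxc1 and Gata2 at least 1 other probe set was also past 2-fold. When the floor was raised to 200, a setting chosen after the data were seen, the members past 2-fold were Sp6, Klf16 and Foxq1 on the higher side and Sox6, Foxo1 and Foxc1 on the lower side.

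**Figure D3:**
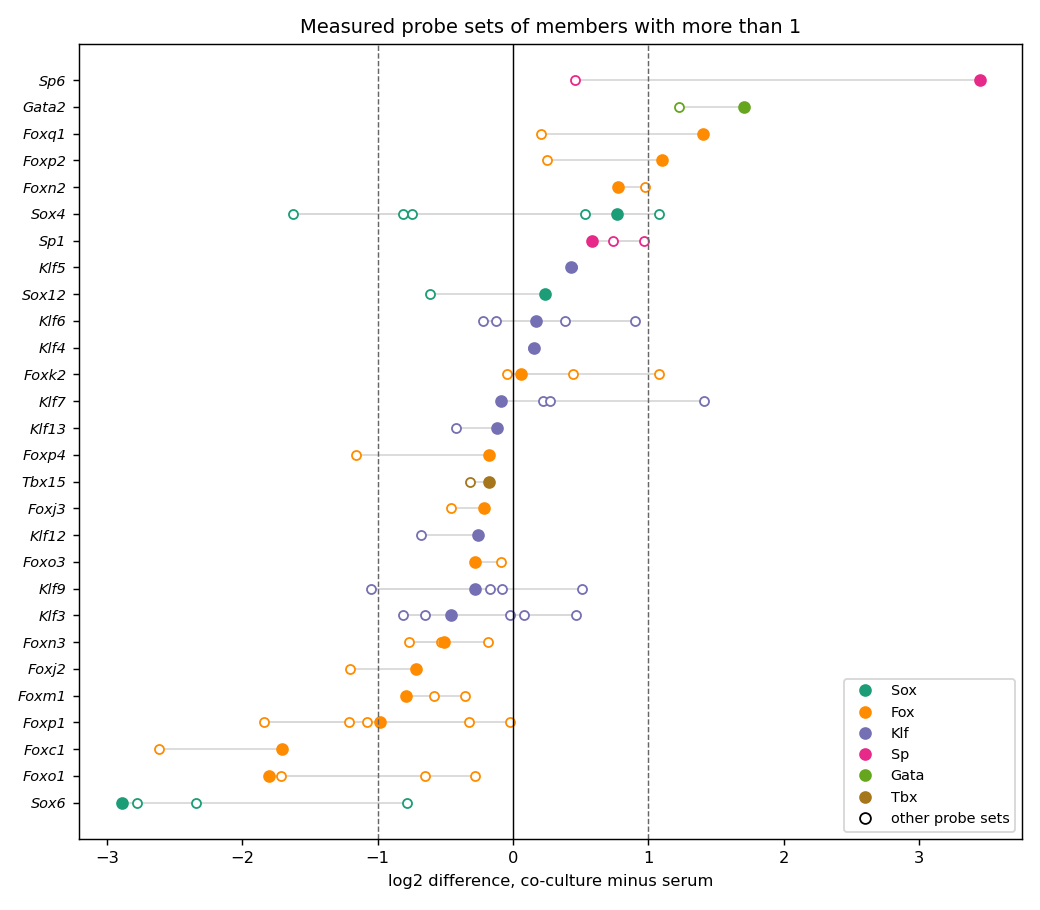
Log2 difference (co-culture minus serum) of every measured probe set of the 28 members with more than 1, with the probe set used in the text filled and the others open; dashed lines mark 2-fold. All 4 Sox6 probe sets lie below 0, while the 6 of Sox4 run from -1.62 to 1.08.

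Promoter letters are shown for the members past 2-fold with another probe set past 2-fold as well, since these are the readings that the array itself repeats. They are the 250 bases before annotated start sites in RefSeq on GRCm38.p6, 5′ to 3′ on the gene's strand. Capitals mark matches on either strand to 1 short motif per family. Sp factors were given the GC box, GGGCGG. For Klf factors the letters searched were CACCC. The Sox motif was spelled AACAAT in this search. Fox factors were represented by the forkhead core GTAAACA. The motif taken for Gata factors was AGATAA. T-box factors were represented by the T-element core GGTGTGA. No base in the promoters shown belongs to more than 1 match. Sox6 has 6 annotated starts, and the 2 farthest upstream are shown.
Gata2, first start, chr6:88193641-88193890, plus strand: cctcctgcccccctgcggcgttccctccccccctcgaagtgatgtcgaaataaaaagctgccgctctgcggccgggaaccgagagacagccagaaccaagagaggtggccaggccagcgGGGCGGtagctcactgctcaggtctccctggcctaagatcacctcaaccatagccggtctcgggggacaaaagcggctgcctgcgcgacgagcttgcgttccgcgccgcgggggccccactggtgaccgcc
Gata2, second start, chr6:88198414-88198663, plus strand: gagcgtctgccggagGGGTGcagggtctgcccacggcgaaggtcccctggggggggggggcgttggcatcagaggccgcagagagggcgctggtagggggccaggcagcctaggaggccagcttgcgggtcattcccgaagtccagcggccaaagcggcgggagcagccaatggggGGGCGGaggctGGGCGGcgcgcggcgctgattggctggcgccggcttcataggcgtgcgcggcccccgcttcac
Foxo1, chr3:52268087-52268336, plus strand: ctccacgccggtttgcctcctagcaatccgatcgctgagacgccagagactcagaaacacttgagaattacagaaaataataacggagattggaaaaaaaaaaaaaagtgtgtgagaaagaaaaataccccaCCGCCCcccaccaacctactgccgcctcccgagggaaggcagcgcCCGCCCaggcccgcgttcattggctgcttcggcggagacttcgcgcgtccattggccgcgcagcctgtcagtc
Foxc1, chr13:31806396-31806645, plus strand: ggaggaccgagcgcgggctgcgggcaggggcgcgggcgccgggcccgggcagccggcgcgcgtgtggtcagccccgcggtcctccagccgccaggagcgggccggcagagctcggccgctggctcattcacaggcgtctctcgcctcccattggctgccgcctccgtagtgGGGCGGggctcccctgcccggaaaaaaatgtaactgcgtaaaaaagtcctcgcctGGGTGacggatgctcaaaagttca
Sox6, first start, chr7:116038745-116038994, minus strand: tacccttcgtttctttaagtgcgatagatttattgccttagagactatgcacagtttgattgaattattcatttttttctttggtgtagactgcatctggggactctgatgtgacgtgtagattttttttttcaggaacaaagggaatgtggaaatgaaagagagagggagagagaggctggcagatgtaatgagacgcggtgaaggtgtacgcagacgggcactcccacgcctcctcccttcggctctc
Sox6, second start, chr7:116031048-116031297, minus strand: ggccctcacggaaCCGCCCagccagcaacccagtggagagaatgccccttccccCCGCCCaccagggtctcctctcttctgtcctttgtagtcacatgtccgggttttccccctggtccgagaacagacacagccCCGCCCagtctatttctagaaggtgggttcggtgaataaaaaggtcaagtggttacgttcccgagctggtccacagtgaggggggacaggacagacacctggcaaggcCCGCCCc

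GC boxes were the motif found most often in these stretches. The Gata2 starts held 1 and 2, Foxo1 held 2, Foxc1 held 1, and the Sox6 starts held 0 and 4. Foxc1 and the second Gata2 start each held 1 CACCC match. None of the 6 stretches held the Sox, Fox, Gata or T-box letters, which says only that these letters are not in this window. Of the 4 Sox6 starts not shown, the fourth held 1 CACCC, 1 Gata and 1 T-box match and the fifth held 2 Sox matches. The table held 87 promoters of 68 members, and 63.2% of them had a GC box, against 32.7% of all 32851 promoters and 42.6% of the 21262 of protein-coding genes. CACCC was in 62.1% of member promoters and 52.0% of all. The Sox letters were in 5.75% against 9.42%, the Fox letters in 3.45% against 3.17%, the Gata letters in 9.20% against 9.99% and the T-box letters in 1.15% against 3.33%. Motif matches describe the letters and not binding.

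Known partners and targets of these factors were read from textbook lists. Among GATA partners 7 of 10 were measured, with 1 higher and 1 lower, where 4.60% and 10.1% of all measured genes were. Of the 7, 5 had a positive difference and 2 a negative one, with a median of 0.02. Lmo2, the bridging protein that joins GATA factors to their complex in blood and vessel precursors, had 86.8 in serum and 436 in co-culture, 5.03-fold higher by its 1 probe set. The name of that probe set also ends in _a_at, so Lmo2, like Gata2, has no value once shared-sequence probe sets are left out. Cbfa2t3, a co-repressor of that complex, had 121 and 50.8, 2.38-fold lower, with -0.55 by another probe set. The anchor protein Ldb1 had 668 and 996 (log2 difference 0.58) and Runx1 had 133 and 135 (0.02). Zfpm2 had 74.9 and 2.05, at least 1.69-fold lower. Tal1 and Lyl1, the blood cell partners, were not measured.

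All 11 FOXO target genes were measured, of which 3 were past 2-fold on the lower side and 0 on the higher, where 10.1% and 4.60% of all measured genes were. Their median difference was -0.29 on the log2 scale, beside -0.06 for all genes. Gadd45a, a DNA damage gene, had 1533 and 592, 2.59-fold lower. Sesn3, a stress-induced brake on mTOR, had 2106 and 957, 2.20-fold lower, but 0.03 by its other probe set. Ccng2, a cyclin of resting cells, had 422 and 198, 2.13-fold lower. Of the 11, 9 had a negative difference, as did 6241 of the 11542 measured genes. The number was 8 with the median difference subtracted or the mean over probe sets, and 11 with spike scaling. Past 2-fold on the lower side were 4 with the floor at percentile 25, a pseudocount, quantile normalization, spike scaling or no shared-sequence probe sets. Under these settings 9.83% to 14.1% of all measured genes were lower. Irs2 had 83.9 and 2.88, at least 1.89-fold lower. Other probe sets gave -1.76 and -1.51 for Sesn1, -1.22 for Cited2, 0.87 for Txnip and -0.28 to 1.14 for Bcl2l11. Upstream of FOXO, 0 of 8 measured PI3K, AKT and SGK genes were past 2-fold. The kinases Sgk3 (519 and 934, 0.85) and Sgk1 (278 and 467, 0.75) had the highest differences of that list. Other Sgk3 probe sets gave 0.79 and 2.04, so that 1 gene of the list was past 2-fold with the mean over probe sets. Akt1, the kinase that phosphorylates FOXO proteins, had 2034 and 2197 (0.11), with other probe sets from 0.03 to 1.37. Those of Pik3r1, a regulatory subunit of PI3K, ran from -1.36 to 1.67, on both sides of the value used (-0.71).

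The 12 FOXM1 target genes present on the array lay within 2-fold by the probe set used, from -0.76 (Ccnb2, a mitotic cyclin, 2981 and 1761) to 0.66 (Skp2, a ubiquitin ligase subunit, 2471 and 3906, and up to 1.79 by another probe set), with a median of -0.05. The 11 measured co-repressors, among them the Groucho and CtBP proteins that Fox and Klf factors recruit, lay within 2-fold by the probe set used, with a median of -0.01, although another probe set of Tle1 gave 1.66. Of 16 genes of the pluripotency circuit 3 were measured, against 63.4% of all genes. Lin28a, an RNA-binding protein of embryonic cells, and the growth factor Fgf4 were the 2 past 2-fold, both higher. Among all measured genes 4.60% were higher. The third, Dppa5a, had 67.4 and 96.7 (0.52). Lin28a had 59.4 and 534, 8.98-fold higher, and Fgf4 had 33.4 and 124, at least 2.80-fold higher. Pou5f1 and Nanog, the partners of Sox2, were not measured.

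SOX10 targets on the array numbered 8, of which 3 were measured, and these did not share a direction. The myelin gene Mbp had 2754 and 277, 9.96-fold lower, with -0.16 by its other probe set. The first is marked for shared sequence, and without such probe sets 0 of the list were lower. The receptor Erbb3 had 54.8 and 119, 2.16-fold higher. Of 7 SOX9 targets 3 were measured and 0 were past 2-fold at the main floor. Col2a1, the main cartilage collagen, was above the floor in co-culture alone (3.18 and 85.7), at least 1.94-fold higher. Hapln1, a cartilage link protein, had 835 and 664 (-0.33). Of 5 KLF2 targets 2 were measured and of 8 T-box relatives and partners 3, with 0 past 2-fold at the main floor. With the floor at percentile 25, 2 of 7 measured SOX9 targets and 1 of 4 KLF2 targets were higher. So were 3 of 7 T-box relatives and partners, and 12.7% of all measured genes. With a pseudocount the numbers higher were 2, 0 and 2, beside 7.63% of all measured genes. The widely expressed Mga, a MAX partner with a T domain, had 4319 and 5527 (0.36), and its other 3 measured probe sets gave 0.86 to 1.83.

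**Figure D4:**
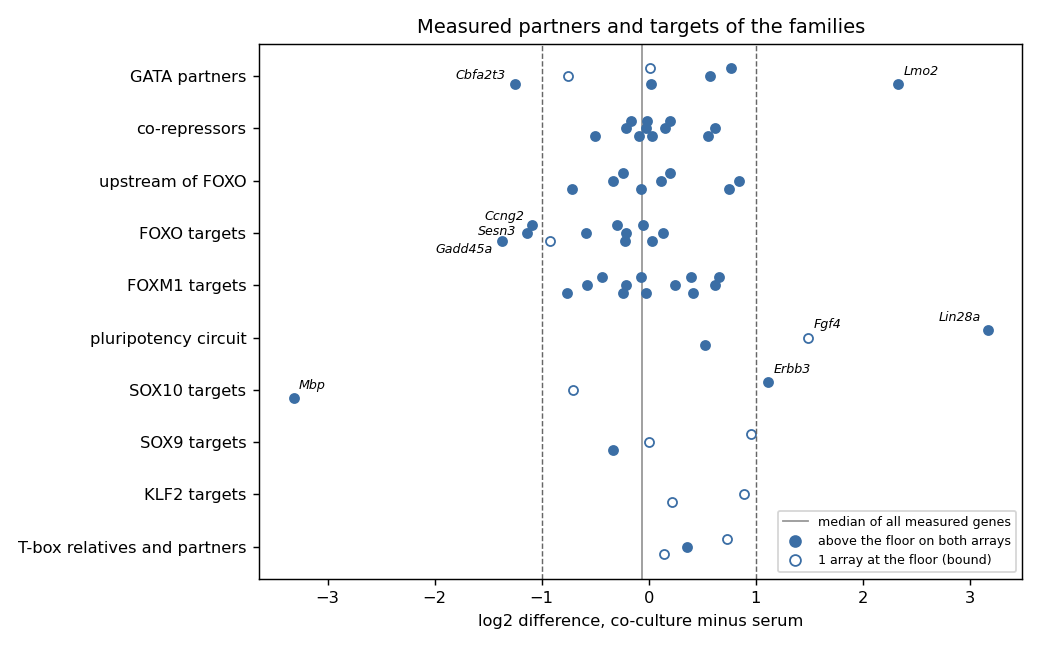
Log2 difference (co-culture minus serum) of each measured gene in the 10 lists of partners and targets, filled where both arrays lay above the floor and open where 1 was at the floor; dashed lines mark 2-fold and the grey line the median of all measured genes (-0.06). FOXM1 targets and co-repressors lie within 2-fold, and 3 FOXO targets lie past it on the lower side.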

How the data were processed

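Total RNA of 2 samples was copied into biotin-labelled cRNA from a poly(A) primer and read on 1-colour arrays, per the labels' protocols. The authors deposited a linear intensity for each of 45101 probe sets. Their software, background correction and normalization were not given in the sources read for this work. Both arrays had a mean of 500.003 once 2% of values were trimmed from either end.

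Symbols came from the array's platform annotation, updated by gene number to RefSeq (GRCm38.p6). Of them 34945 had 1 symbol, 932 several, 64 were controls and 9160 had no listed symbol. The floor was the pooled median, 44.3, and 27 bacterial control probe sets outside the spikes reached at most 21.7. A gene was read by its probe set of highest mean intensity. The text names members past 2-fold, the 3 brightest of each family, a fixed list of members, and up to 4 members past 2-fold of each list. Other genes in the text were chosen after their values were seen. Members and lists were chosen with earlier results of these data known.

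Alternatives were floors at percentiles 25 and 75, a pseudocount of 16, subtraction of the median difference, quantile normalization, scaling to 18 bacterial spike probe sets, 2 other ways to join probe sets and leaving out shared-sequence probe sets. Shared-sequence probe sets were those with names ending in _a_at, _s_at or _x_at. A floor at 200 was chosen later. With 1 array per group the number of arrays limits the precision. Calculations used Python 3.11.15, numpy 2.4.6, pandas 2.3.3 and scipy 1.17.1, and were checked on simulated data. The simulation changed bright genes by more than 2-fold, with less noise than the SD between probe sets. It therefore does not bear on calls near the 2-fold limit or near the floor.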

Additional observations from a re-analysis of the deposited data

How the results depend on the processing

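The counts depend on the floor. With the floor at percentile 25 (12.8) 85 members were measured, 14 higher and 11 lower, and among all genes 2053 were higher and 1619 lower. With the floor at percentile 75 (389) 31 were measured, 1 higher (Klf16) and 0 lower, and among all genes 143 and 399. With the floor at 200, chosen after the data were seen, 3 members were higher and 3 lower (221 and 662 of all genes), and Gata2, Gata4, Foxp2, Foxl2, Klf15, Sp5 and Sox11 were no longer past 2-fold. A pseudocount gave 6 and 9 members, and 881 and 1227 of all genes. Spike scaling moved the median of the measured members from -0.09 to -0.26, and the shift follows from the scaling itself. Of 296 values of 32 named members under the alternatives and the floor at 200, 275 moved by less than the SD between probe sets. The other 21 moved by more, and 0 members past 2-fold changed sign. Floors and a pseudocount cannot change a sign. Values well above a floor, or from a single probe set, often could not move, so these counts are a description and no test. Apart from these raised floors, calls past 2-fold were lost or without a value for Foxo1, Gata2, Sox11 and Foxq1 without shared-sequence probe sets, for Foxq1 and Foxp2 with the mean over probe sets, and for Gata4 under 3 settings. No paired analysis was possible because each group is 1 array. Signals near the floor limit what can be said of most T-box, Gata and Sox genes.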

Other observations

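Some transcripts named after a member lie outside the name rule. Foxl2os, the non-coding transcript beside Foxl2, had 561 in serum and 21.0 in co-culture, at least 12.7-fold lower, and Foxl2 itself was at least 2.74-fold lower. Sox2ot (1.64 and 3.57), Sox6os (6.44 and 29.8), Sp3os (28.8 and 12.0) and Gata5os (1.95 and 12.6) were under the floor on both arrays. Of probe sets that list a member among several genes there were 2. The one shared by Tex52, Pebp1 and Foxm1 read 2027 and 1017, 1.99-fold lower, and the one shared by Gm38485 and Foxo3 read 30.5 and 81.8.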
